A study of Mus musculus with 468 samples.

Results

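Adipokines are proteins that fat tissue secretes into the blood, and the transcripts of 6 of them other than leptin were examined in adipose tissue. Adiponectin (Adipoq), resistin (Retn), adipsin (Cfd), retinol binding protein 4 (Rbp4), apelin (Apln) and nicotinamide phosphoribosyltransferase (Nampt) were chosen by name. All 6 symbols were found among 23180 genes in the deposited tables, and all 6 were among the 18380 genes that passed a filter on low counts. RNA came from the adipose tissue, the gonadal fat pad per the study's methods, of Diversity Outbred mice (J:DO, an outbred stock bred from several inbred founder strains), with 1 library per mouse. The mice ate a diet high in fat and sugar, with 45 percent fat, from 4 weeks of age and were harvested at 22 weeks, so no library comes from mice on another diet. The labels give a mouse number and a library number for each library, and no sex, generation, genotype, weight or batch, so the libraries form 1 group. The questions put to the data were how far each transcript varied between mice, which members varied together, and how they followed their receptors, binding partners and the cell types of the tissue.

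Adiponectin is released almost solely by fat cells, circulates at high levels, improves insulin sensitivity and is known to be low in obesity. Resistin, a cysteine-rich hormone, is made by fat cells in mice and opposes insulin action, whereas adipsin is complement factor D, the serine protease that starts the alternative complement pathway by cutting factor B. Rbp4 carries retinol, apelin is a peptide ligand of a receptor found on endothelial cells, and Nampt, also called visfatin, is the rate-limiting enzyme of NAD salvage inside cells and is also found outside them. In bulk tissue, fewer cells of a type and less RNA per cell cannot be told apart, and this holds for every level given here.

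Total expected counts per library ranged from 35298813 to 137760410 (median 82043357), and no member was at 0 in any library. The lowest count of a member was 100, for Apln, so counting error was small beside the spread between mice. Levels are given as CPM, counts relative to the library total after TMM normalization, and relations were computed on log2 CPM. Checked against the labelled tissue, all 18 adipocyte markers (Fabp4, Plin1, Cidec and others) had counts in every library, with summed levels from 20379 to 87220 CPM (median 56395). The libraries in which Ddx3y, Eif2s3y, Kdm5d and Uty had no count (48.5%) and those in which they had counts (51.5%) form separate clusters. The clusters were read from the counts and not from the labels, and relations over all libraries stand beside values within them for the pairs, partners and scores described.

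On GRCm38, the genes lie on 6 different chromosomes: Adipoq (ENSMUSG00000022878) at chr16:23146536-23158028, Retn (ENSMUSG00000012705) at chr8:3655770-3660110 and Cfd (ENSMUSG00000061780) at chr10:79890853-79892655, all on the plus strand, Rbp4 (ENSMUSG00000024990) at chr19:38116629-38125281 on the minus strand, Apln (ENSMUSG00000037010) at chrX:48025146-48034853 on the minus strand, and Nampt (ENSMUSG00000020572) at chr12:32819545-32853349 on the plus strand. All are protein-coding. Nampt overlaps the non-coding RNA gene Gdap10, which has no row in the files, and the other 5 members overlap no annotated gene. The 250 bases before the start site are shown for Adipoq, Retn and Cfd, 3 of the 4 members whose levels varied together, and for Apln, whose level was inversely related to that of Cfd. Rbp4, the remaining member of that group, has 2 RefSeq start sites, and its matches are given after the sequences. They come from RefSeq (GRCm38.p6), run 5′ to 3′ on the strand of the gene, and capitals mark matches to CCAAT on either strand.
Adipoq, chr16:23146286-23146535: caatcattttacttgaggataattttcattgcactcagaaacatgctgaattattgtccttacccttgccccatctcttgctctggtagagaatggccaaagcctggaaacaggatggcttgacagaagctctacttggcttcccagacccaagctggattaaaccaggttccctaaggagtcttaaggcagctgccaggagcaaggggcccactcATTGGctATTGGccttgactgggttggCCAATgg
Retn, chr8:3655520-3655769: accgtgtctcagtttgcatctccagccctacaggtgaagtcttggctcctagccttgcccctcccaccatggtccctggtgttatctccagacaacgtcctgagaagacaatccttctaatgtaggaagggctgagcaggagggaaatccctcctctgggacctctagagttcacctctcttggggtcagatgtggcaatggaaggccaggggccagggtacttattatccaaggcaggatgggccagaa
Cfd, chr10:79890603-79890852: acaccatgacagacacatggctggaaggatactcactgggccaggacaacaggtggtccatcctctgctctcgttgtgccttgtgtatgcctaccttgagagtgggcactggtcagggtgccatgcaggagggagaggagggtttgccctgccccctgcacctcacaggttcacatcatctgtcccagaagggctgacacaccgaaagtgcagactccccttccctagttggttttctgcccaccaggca
Apln, chrX:48034854-48035103: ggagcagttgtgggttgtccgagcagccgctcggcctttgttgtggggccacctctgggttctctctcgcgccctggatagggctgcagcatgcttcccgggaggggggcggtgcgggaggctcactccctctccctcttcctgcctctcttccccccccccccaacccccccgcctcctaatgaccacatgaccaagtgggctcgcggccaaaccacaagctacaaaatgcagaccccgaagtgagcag
The Adipoq sequence held CCAAT or its complement ATTGG at 3 places, from -34 to -30, from -27 to -23 and from -7 to -3 relative to the start, and the other 3 sequences held none. Of 32536 RefSeq promoters in the same window, 33.8% held it. No match to TTNNGCAA (bound by C/EBP factors, in 9.57% of promoters), TATAAA (12.3%), CACGTG (6.04%), AGGTCA (14.04%) or ACGTG (16.7%), searched on both strands with CACGTG overlapping ACGTG, was found in these 4 windows. Rbp4 differed from them: the window of its first start site held ATTGG from -162 to -158, and that of its second held TTNNGCAA from -128 to -121, TATAAA from -28 to -23 and ACGTG from -189 to -185. The Nampt window held AGGTCA from -151 to -146 and the complement of ACGTG from -82 to -78. Positions are relative to the RefSeq start sites. The windows of Nampt (chr12:32820085-32820334) and of the second Rbp4 start site (chr19:38124812-38125061) lie inside the gene spans given above. A match to letters describes the sequence and shows no binding.

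Adipoq and Cfd were the most abundant of the 6 transcripts, and Cfd was by far the most variable. Adipoq ranged from 499.6 CPM to 3818 CPM over all libraries with a median of 2096, and its mean was 2063 ± 629.1 (SD). The 5th and 95th percentiles were 942 and 3058 CPM, a 3.24-fold span. Retn ranged from 44.1 to 1616 CPM (median 540.3, mean 544.6 ± 237.02). Cfd spanned 35.8 to 10084 CPM (median 1552, mean 2057 ± 1743), a 281.4-fold range against a 7.64-fold range for Adipoq and a 36.6-fold range for Retn. Its SD was 1.56 on the log2 CPM scale, compared with 0.82 for Retn and 0.52 for Adipoq. The biological coefficient of variation of Cfd, 0.893 in edgeR, exceeded that of 90.4% of the 18380 genes past the filter, whose median was 0.312.

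Rbp4 ranged from 30.4 to 802 CPM (median 298.9, mean 298.1 ± 111.1), with an SD of 0.62 on the log2 scale. Apln, the least abundant member, lay between 1.02 and 34.5 CPM (median 8.38, mean 9.403 ± 5.322, SD of log2 CPM 0.87). Nampt was the least variable over all libraries, from 63.7 to 374.6 CPM (median 116.8, mean 128.7 ± 45.6, SD of log2 CPM 0.46). Within the libraries without Y chromosome counts this did not hold, since the SD was 0.51 for Nampt, 0.50 for Rbp4, 0.49 for Retn and 0.33 for Adipoq. The coefficients of variation were 0.333 for Adipoq, 0.496 for Retn, 0.397 for Rbp4, 0.562 for Apln and 0.323 for Nampt, so Nampt and Adipoq varied about as much as the median gene. Median levels in the libraries without and with Y chromosome counts were 2279 and 1855 CPM for Adipoq, 613.7 and 463.9 for Retn, 2867 and 813 for Cfd, 321.4 and 273.6 for Rbp4, 5.93 and 10.8 for Apln, and 132.6 and 108.998 for Nampt. The ranges of the clusters overlapped for every member, and no test between them was made, because they were defined from the data and not by the labels.

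**Figure D1:**
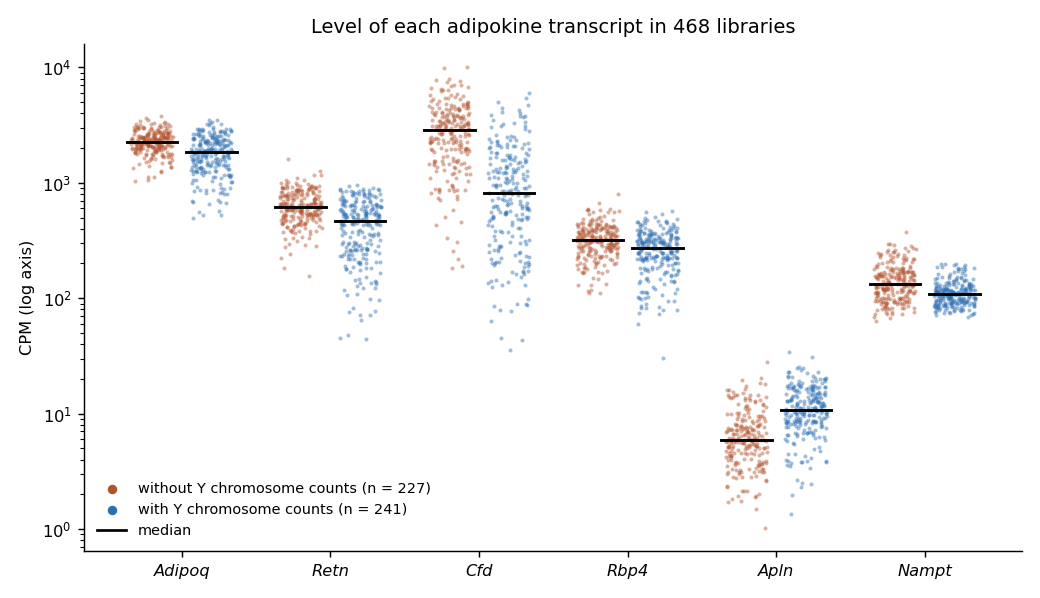
Level of the 6 transcripts in each library in CPM on a log axis, 1 point per library, with libraries without Y chromosome counts on the left and with them on the right of each gene and a bar at the median of each cluster. Cfd spreads from 35.8 to 10084 CPM, Nampt from 63.7 to 374.6 CPM, and the lowest values of Adipoq, Retn, Cfd and Rbp4 lie in libraries with Y chromosome counts.

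Per kilobase of merged exons, Cfd had a mean of 2231 CPM and was the 19th of 23180 genes, followed by Adipoq with 1494 (25th), Retn with 344.9 (80th), Rbp4 with 221.97, Nampt with 25.5 (1509th) and Apln with 2.99 (8926th). Cfd and Adipoq could not be ranked over all mice, because Cfd was above Adipoq in 52.99% of libraries. This share pools clusters whose medians stood in opposite order. In CPM, the medians were 2867 for Cfd and 2279 for Adipoq without Y chromosome counts, and 813 and 1855 with them. Per kilobase, Adipoq was above Retn, Rbp4 above Nampt and Nampt above Apln in every library, and Retn was above Rbp4 in 84.83%. Mouse DO088 had the lowest level of both Retn and Cfd, with 44.1 and 35.8 CPM. Mouse DO200 had the lowest level of Rbp4 and nearly the same low levels of Retn (45.6 CPM) and Cfd (45.2 CPM). Mouse DO215 had the lowest Adipoq. These 3 mice had adipocyte scores of -2.31, -2.58 and -2.03 and macrophage scores of 3.03, 2.68 and 1.83, on a scale whose mean over mice is 0. At the other end, DO472 had the highest Retn and the highest Rbp4, DO150 the highest Cfd and DO354 the highest Adipoq. The library with the lowest Apln, of DO349, had 7942 CPM of Cfd, and DO084 had the highest Apln with 653.7 CPM of Cfd. Nampt was lowest in DO232 and highest in DO222.

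Adipoq, Retn, Cfd and Rbp4 varied together across mice. Of the 15 pairs of members, 10 correlated positively and 4 negatively at a two-sided permutation p below 0.05. Among all genes, the share with a positive slope on a member at an adjusted p below 0.05 in limma was 34% for Adipoq, 37.5% for Retn, 40.1% for Cfd, 31.3% for Rbp4, 37.4% for Apln and 36.2% for Nampt. The shares with a negative slope were 36.4% for Adipoq, 38% for Retn, 40.1% for Cfd, 34.3% for Rbp4, 37.4% for Apln and 42.4% for Nampt. Passing the threshold was thus common among genes, and the size of r carries the description.

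Retn and Cfd were the closest pair, with r = 0.792 and rho = 0.718. Each permutation p was 1e-05, the lower limit with 100000 resamples, and the adjusted p over 18379 genes in limma was 9.97e-99. This r exceeded that of Retn with 99.97% of all genes past the filter. Within the libraries without Y chromosome counts r was 0.558, and within those with them it was 0.819. Adipoq and Retn had r = 0.710 (rho = 0.564, adjusted p = 6.87e-70), and Adipoq and Cfd had r = 0.630 (rho = 0.493, adjusted p = 5.4e-51). Those 2 relations were much looser in the libraries without Y chromosome counts, with r = 0.264 (p = 0.00011) and 0.171 (p = 0.00917), than in the libraries with them, with 0.772 and 0.692 (both p = 1e-05). By rank, Adipoq with Cfd missed the threshold in the libraries without Y chromosome counts (rho = 0.059, p = 0.379). Adipoq with Retn had rho = 0.179 there (p = 0.00672). Adipoq also varied less in the first cluster, with an SD of 0.33 on the log2 scale against 0.58.

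Rbp4 followed Retn with r = 0.651 (rho = 0.541), Adipoq with 0.559 (rho = 0.436) and Cfd with 0.491 (rho = 0.366), all with p = 1e-05. Without Y chromosome counts these r values were 0.417, 0.192 (p = 0.00404) and 0.168 (p = 0.0114), and with them 0.695, 0.642 and 0.545. The rho values without Y chromosome counts were 0.395, 0.184 (p = 0.00558) and 0.102 (p = 0.125), so Rbp4 with Cfd missed the threshold by rank. Nampt correlated with Cfd (r = 0.528, rho = 0.575), with 0.481 and 0.453 within the clusters. Its slopes nevertheless differed between them, in opposite directions by predictor. Nampt changed by 0.37 without and 0.16 with Y chromosome counts per SD of Cfd (log2 scale, interaction adjusted p = 2.94e-05), and Cfd by 0.44 and 0.92 per SD of Nampt (adjusted p = 0.000778). Its relation with Retn was weaker (r = 0.377, rho = 0.420, within clusters 0.235 and 0.382), as was that with Rbp4 (r = 0.253, rho = 0.242, within clusters 0.092 and 0.291). For Adipoq and Nampt, the pooled r of 0.187 (p = 6e-05, rho = 0.171) hid opposite signs, -0.167 (p = 0.0113) without and 0.279 (p = 4e-05) with Y chromosome counts.

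Apln was inversely related to Cfd, with r = -0.531 (rho = -0.621, adjusted p = 7.7e-35), and to Nampt, with r = -0.471 (rho = -0.469, adjusted p = 2.4e-26). Each relation was negative in both clusters, at -0.502 and -0.295 for Cfd and at -0.395 and -0.364 for Nampt. The slope of Apln per SD of Cfd differed, at -0.61 without and -0.23 with Y chromosome counts (log2 scale, interaction adjusted p = 6.61e-05). That of Cfd per SD of Apln was -0.56 and -0.52 (adjusted p = 0.858). For Apln with Retn the pooled r was -0.244 (rho = -0.313, p = 1e-05). Within the clusters it was -0.078 (p = 0.244) and -0.078 (p = 0.227), neither of which passed the threshold. With Adipoq r was -0.112 (p = 0.0152, rho = -0.136), and within the clusters it was 0.139 (p = 0.0366) and 0.035 (p = 0.585). Rbp4 and Apln were the pair whose r missed the threshold (r = -0.084, p = 0.0695), although rho passed (-0.118, p = 0.0105), and within the clusters r was 0.0099 and 0.080. Without the 2 libraries farthest from the median of Rbp4 its r was -0.112 (p = 0.0155), so this call turned on those libraries.

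Without the 2 libraries farthest from the median of the first gene of a pair, r moved by at most 0.028 in any pair. It was 0.781 for Retn with Cfd, 0.699 for Adipoq with Retn, 0.625 for Adipoq with Cfd, 0.632 for Retn with Rbp4 and -0.540 for Cfd with Apln. In the 5 blocks of consecutive mouse numbers, r ranged from 0.733 to 0.830 for Retn with Cfd, from 0.657 to 0.757 for Adipoq with Retn, from 0.511 to 0.696 for Adipoq with Cfd and from -0.604 to -0.443 for Cfd with Apln. In the 5 blocks of library numbers the corresponding ranges were 0.679 to 0.825, 0.643 to 0.769, 0.583 to 0.707 and -0.608 to -0.444.

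**Figure D2:**
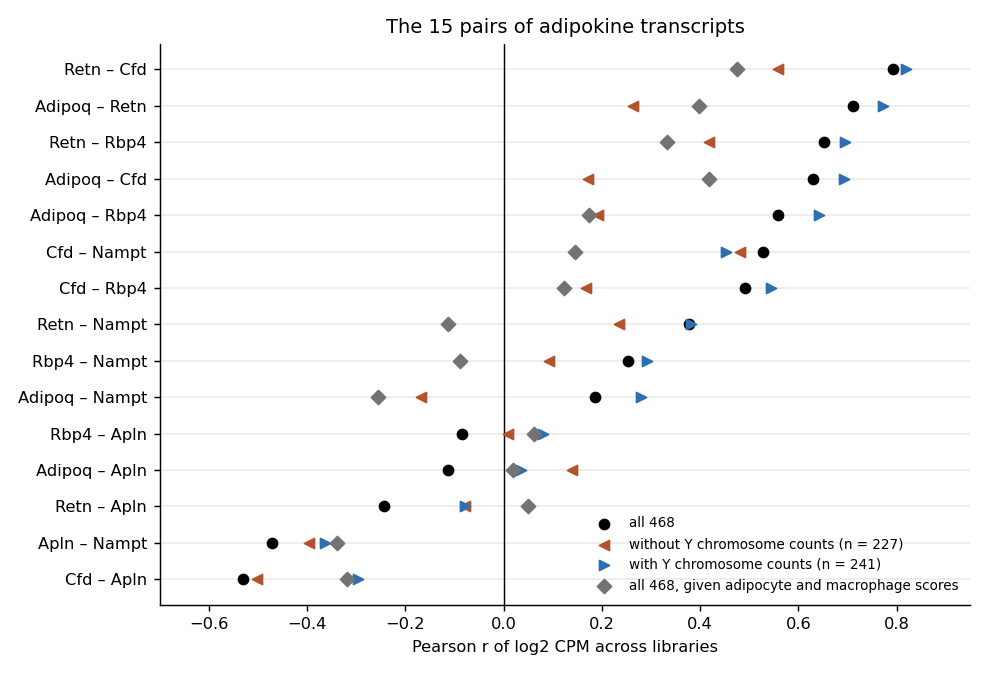
Pearson r of log2 CPM for the 15 pairs over all libraries (circles), within the libraries without (left triangles) and with Y chromosome counts (right triangles), and over all libraries given the adipocyte and macrophage scores (diamonds). The pairs of Adipoq with Retn, Cfd and Rbp4 lie far lower without Y chromosome counts (0.264, 0.171 and 0.192) than with them (0.772, 0.692 and 0.642), and given the scores Retn with Cfd is the highest at 0.475.

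Whether a slope differed between the clusters was tested as an interaction in limma, a test added after the data were seen. It passed an adjusted p of 0.05 for 41.8% of genes with Adipoq as the predictor, 26.6% with Retn, 42.3% with Cfd, 25.8% with Rbp4, 9.66% with Apln and 30.8% with Nampt, so a difference between the clusters was not particular to these genes. In 5 of the 15 pairs it passed with either gene as the predictor and the same sign: Adipoq with Retn, Cfd, Rbp4 and Nampt, and Cfd with Rbp4. With at least 1 gene as the predictor and either sign, it passed in 11 pairs. The slope of Retn per SD of Adipoq was 0.20 on the log2 scale without and 0.64 with Y chromosome counts (difference 0.43 ± 0.06 SE, adjusted p = 1.73e-09).

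**Figure D3:**
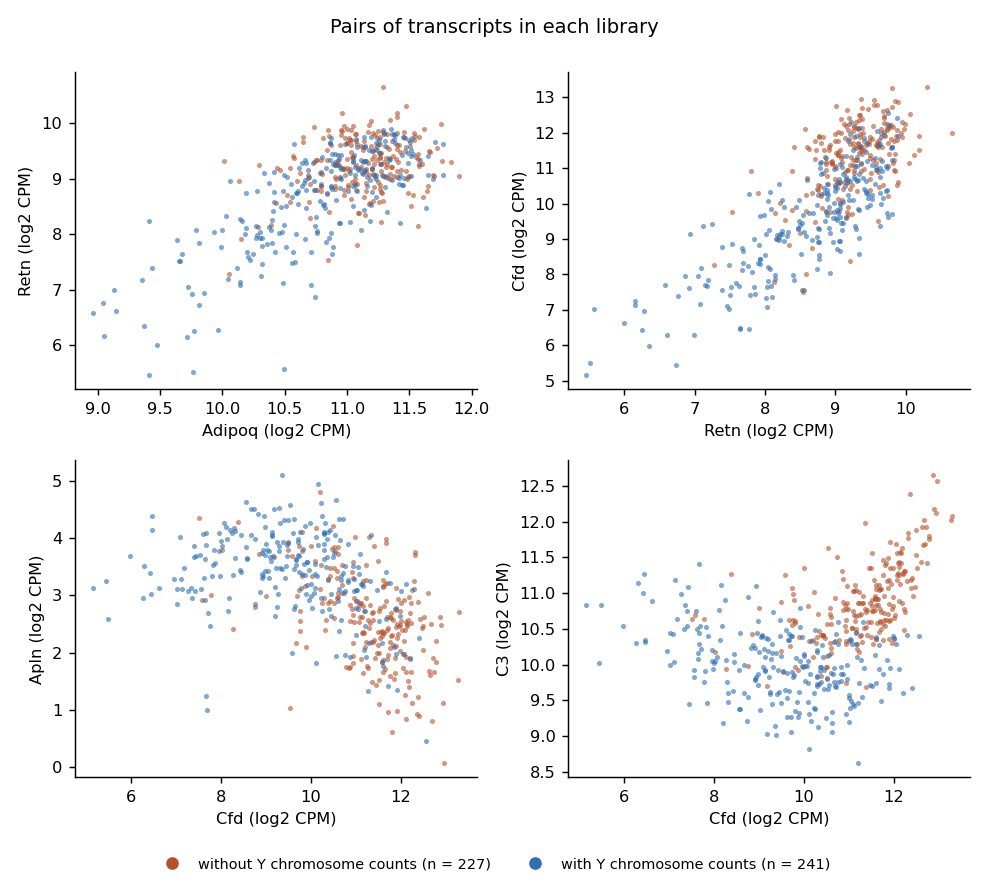
Log2 CPM of pairs of transcripts, 1 point per library, colored by cluster: Adipoq and Retn, Retn and Cfd, Cfd and Apln, and Cfd and complement C3. The lowest values of Adipoq, Retn and Cfd lie in libraries with Y chromosome counts, Apln is lower where Cfd is high (r = -0.531), and C3 slopes in opposite directions in the clusters (r = 0.577 without and -0.392 with Y chromosome counts).

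Adipoq, Retn and Rbp4 followed the level of fat cell genes, and Cfd and Retn were inversely related to macrophage genes. A score was the mean z-scored log2 CPM of the genes of a list, and none of the lists holds a member. Adipoq correlated with the score of 18 adipocyte markers at r = 0.685 (rho = 0.588), Retn at 0.650 (rho = 0.562), Rbp4 at 0.616 (rho = 0.533), Cfd at 0.475 (rho = 0.376) and Nampt at 0.358 (rho = 0.371), each with p = 1e-05. For Apln no linear relation with the score was detected (r = -0.0099, p = 0.831, rho = -0.089). Its list was split, since 8 markers were positive and 8 negative on Apln past the threshold, with r from -0.425 to 0.663. In the libraries without Y chromosome counts the r with the score was 0.384 for Adipoq, 0.393 for Retn, 0.313 for Rbp4, 0.197 for Cfd and 0.338 for Nampt. In those with them it was 0.781, 0.723, 0.731, 0.554 and 0.332.

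Cfd had the strongest relation with the score of 18 macrophage markers, r = -0.840 (rho = -0.793), followed by Retn at -0.742 (rho = -0.637), Nampt at -0.545 (rho = -0.587), Adipoq at -0.533 (rho = -0.369) and Rbp4 at -0.498 (rho = -0.387), whereas Apln had a positive one, 0.477 (rho = 0.582). All 18 macrophage markers had a negative slope on Cfd past the threshold, with a median r of -0.78 and a range from -0.87 to -0.50, beside a median r of 0.003 over all 18379 genes. The summed level of these markers ranged from 383.4 to 10462 CPM over mice. For Cfd the relation held in both clusters, at -0.634 without and -0.833 with Y chromosome counts. For Adipoq it was 0.127 (p = 0.0545) without and -0.628 with them, and for Rbp4 it was -0.112 (p = 0.093) and -0.581. The values were -0.359 and -0.792 for Retn, -0.586 and -0.411 for Nampt, and 0.467 and 0.221 for Apln. In blocks of mouse numbers the relation of Cfd ranged from -0.871 to -0.793.

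Nampt had the highest r of the 6 members with thermogenic genes, over all libraries and within each cluster, though the difference between members was not tested. Its r with the score of 11 thermogenic genes, such as Ucp1, Cidea and Cox7a1, was 0.655 (rho = 0.584), and all 11 had a positive slope on Nampt past the threshold (median r 0.62). The same count was reached on Cfd (median r 0.49), 10 of the 11 were positive on Retn (0.28) and on Rbp4 (0.17), and 9 on Adipoq (0.21), whereas all 11 were negative on Apln (-0.47). Within the libraries without and with Y chromosome counts, the median r on Adipoq was negative in both, at -0.19 and -0.069. It was 0.16 and -0.063 on Retn, 0.037 and -0.049 on Rbp4, and 0.43 and -0.17 on Cfd. The relation of Nampt with the score was 0.722 without and 0.344 with Y chromosome counts, both with p = 1e-05. Apln had the opposite sign, -0.514 over all and -0.374 and -0.190 within the clusters. Cfd reached 0.518 over all, 0.439 without and -0.111 (p = 0.0863) with Y chromosome counts. Nampt was also inversely related to the score of 14 adipocyte progenitor genes (r = -0.516, within clusters -0.625 and -0.388). With the score of 12 endothelial genes, Adipoq had r = 0.352 (rho = 0.252) and Apln 0.319 (rho = 0.340). Within the clusters they differed in order, with 0.244 and 0.532 for Adipoq and 0.447 and 0.168 (p = 0.00956) for Apln. Of 66 relations between the 6 members and 11 scores, 26 were positive and 27 negative at p below 0.05. The scores of T cells, B cells, neutrophils, liver and skeletal muscle had r between -0.359 and 0.217 with the members. Rbp4, which the liver makes in large amounts, had r = 0.159 (p = 0.0005, rho = 0.149) with the score of 10 liver genes, at 0.266 and 0.111 (p = 0.086) within the clusters. Lists for epididymis, ovary and pancreas had fewer than 5 genes past the filter and got no score.

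Given the adipocyte and macrophage scores together, Retn and Cfd still correlated at r = 0.475, Adipoq and Cfd at 0.418, Adipoq and Retn at 0.397 and Retn and Rbp4 at 0.333, each with p = 1e-05 (residuals permuted). Adipoq with Rbp4 and Cfd with Rbp4 were at 0.174 and 0.123. Given both scores within the clusters without and with Y chromosome counts, Retn with Cfd was at 0.483 and 0.445. Adipoq with Cfd was at 0.369 and 0.362, Adipoq with Retn at 0.228 and 0.338, and Retn with Rbp4 at 0.346 and 0.210. Adipoq with Rbp4 missed the threshold in both, at 0.090 (p = 0.179) and 0.062 (p = 0.338). Cfd with Rbp4 was at 0.133 (p = 0.046) and 0.024 (p = 0.706). Over all libraries, the relations of Nampt changed sign with Adipoq (-0.255, p = 1e-05) and with Retn (-0.114, p = 0.0132), and that with Cfd was 0.145 (p = 0.00162). Within the clusters, Nampt with Adipoq was at -0.235 (p = 0.00037) and -0.082 (p = 0.206). Nampt with Retn was at -0.033 (p = 0.618) and 0.032 (p = 0.62), and Nampt with Cfd at 0.178 and 0.198. Apln kept its inverse relation to Cfd (-0.319) and to Nampt (-0.339), while its relation with Retn was at 0.049 (p = 0.291).

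**Figure D4:**
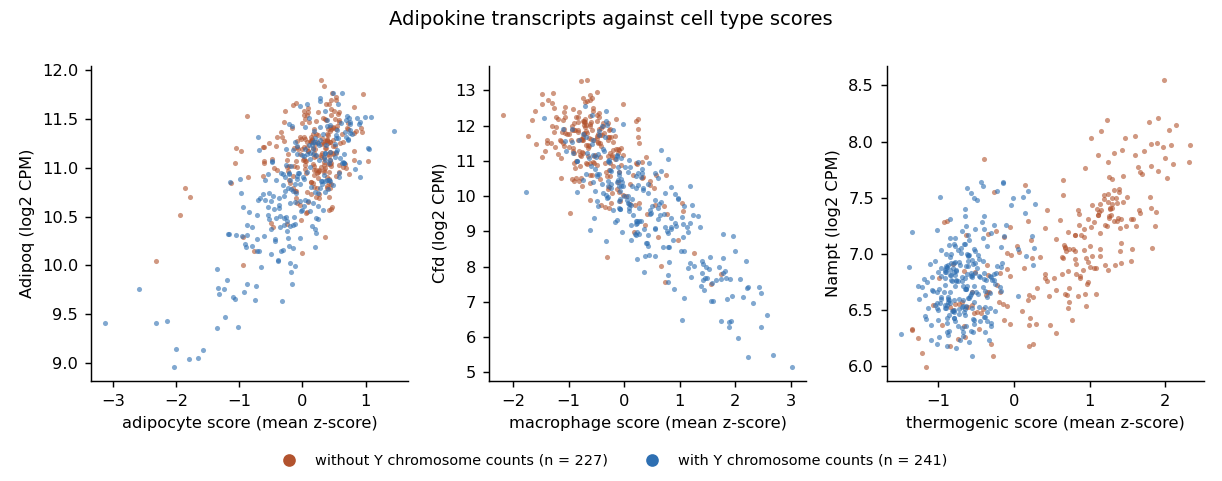
Log2 CPM of Adipoq against the adipocyte score, of Cfd against the macrophage score and of Nampt against the thermogenic score (scores are mean z-scores without unit), 1 point per library colored by cluster. Cfd is lower where the macrophage score is high in both clusters (r = -0.634 and -0.833), and the highest thermogenic scores lie in libraries without Y chromosome counts, where r with Nampt was 0.722.

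Measures of the libraries moved with some members as well. The TMM factor correlated with Nampt at r = -0.706, with Cfd at -0.509, with Retn at -0.484, with Rbp4 at -0.440, with Adipoq at -0.356 and with Apln at 0.310. For Adipoq the clusters had opposite signs, 0.135 (p = 0.0416) without and -0.542 with Y chromosome counts, and for Apln they had 0.246 and -0.064 (p = 0.321). For the other 4 members both were negative, at -0.787 and -0.387 for Nampt, -0.381 and -0.333 for Cfd, -0.291 and -0.497 for Retn, and -0.183 and -0.595 for Rbp4. The summed level of mitochondrially encoded genes correlated with Nampt at 0.751, with Cfd at 0.628, with Retn at 0.474, with Rbp4 at 0.371, with Adipoq at 0.310 and with Apln at -0.503. Here too the clusters had opposite signs for Adipoq, -0.217 (p = 0.00079) and 0.459. They had 0.791 and 0.620 for Nampt, 0.480 and 0.462 for Cfd, 0.214 and 0.523 for Retn, 0.093 (p = 0.162) and 0.565 for Rbp4, and -0.401 and -0.148 for Apln. Their part in the relations between members was not tested. Over all libraries the total count correlated with no member beyond r = 0.063 (p = 0.174, Adipoq), and without Y chromosome counts it reached 0.143 for Adipoq (p = 0.0315). The ribosomal RNA gene CT010467.1 had r from -0.188 (Adipoq) to -0.0058 (Apln) over all libraries, and from -0.276 (Retn, with Y chromosome counts) to 0.078 (Nampt, without) within the clusters.

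Genes that act with each adipokine were taken from fixed lists, 48 relations in all. Their counts stand beside the shares over all genes given with the pairs, from 31.3% (positive, Rbp4) to 42.4% (negative, Nampt). For Adipoq, 8 of 10 partners correlated positively and 2 negatively in limma at an adjusted p below 0.05. Adipor2, an adiponectin receptor, ranged from 374.7 to 1614 CPM (median 835) and had r = 0.545 (rho = 0.460, adjusted p = 5.74e-36), with 0.099 (p = 0.135) and 0.680 within the clusters. Adipor1, the other receptor, was far less variable (96.3 to 228.4 CPM, median 138.98) and had r = 0.285, with -0.016 (p = 0.814) and 0.575. Cdh13 (T-cadherin), which binds the large forms of adiponectin, had 0.290, with 0.219 and 0.502.

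The 3 partners that help to assemble adiponectin in the endoplasmic reticulum did not move alike. Gstk1 (DsbA-L), a chaperone of its multimers, had r = 0.608 (rho = 0.494, adjusted p = 1.43e-46, within clusters 0.257 and 0.658), whereas Ero1l, an oxidase that aids disulfide formation, had -0.379 and Erp44, which retains adiponectin, had -0.332. Within the clusters these were -0.121 (p = 0.0671) and -0.408 for Ero1l and -0.192 and -0.462 for Erp44. Among transcription factors that act on the gene, Foxo1 had r = 0.563, Klf15 0.538, Cebpa 0.426 and Pparg 0.347, and in the libraries without Y chromosome counts these were 0.083 (p = 0.211), 0.147 (p = 0.0266), 0.142 (p = 0.0319) and -0.028 (p = 0.666), against 0.679, 0.579, 0.435 and 0.332 with them. Given both scores, Foxo1 remained at 0.319, and Cebpa and Pparg were at -0.169 and -0.179.

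For Retn, 3 of 6 partners were positive and 3 negative. Cap1, described as a resistin receptor on monocytes, had the strongest relation, r = -0.646 (rho = -0.559, adjusted p = 3.45e-55), at -0.261 and -0.717 within the clusters, and given both scores it was 0.037. The other proposed receptors, Ror1 and Tlr4, had -0.484 and -0.283, with -0.095 (p = 0.154) and -0.563 within the clusters for Ror1 and -0.062 (p = 0.352) and -0.321 for Tlr4. Cebpa and Pparg, regulators of fat cell genes, had 0.510 and 0.441, and r was alike in the clusters (0.426 and 0.434 for Cebpa, 0.324 and 0.305 for Pparg). The slope of Cebpa nevertheless differed, at 0.21 without and 0.12 with Y chromosome counts per SD of Retn (log2 scale, interaction adjusted p = 0.0331). For Pparg the slopes were 0.19 and 0.089, and the interaction missed the threshold (adjusted p = 0.0514). For Cebpb the pooled r of 0.098 (adjusted p = 0.0453) stood beside 0.065 (p = 0.332) without and -0.365 (p = 1e-05) with Y chromosome counts, and in a model that also held Xist and the Y genes its slope was negative (-0.11).

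Complement genes made the sharpest contrast for Cfd. C3, the protein cut by the convertase that Cfd activates, ranged from 393.2 to 6461 CPM (median 1346) and had r = 0.371 over all libraries (rho = 0.445, adjusted p = 2.28e-16). Within the libraries without Y chromosome counts r was 0.577, and within those with them it was -0.392, both with p = 1e-05. The slope of C3 per SD of Cfd differed by -0.68 ± 0.05 (SE) on the log2 scale between the clusters (with minus without, adjusted p = 2.62e-27), and it was the only 1 of the 48 partner relations that passed in both clusters with opposite signs and differed between them. The range of Cfd itself also differed, from 182.9 to 10084 CPM without and from 35.8 to 6050 CPM with Y chromosome counts, and whether the different ranges account for the slopes was not tested. Of the 8 Cfd partners, C3 was positive, 6 were negative and Masp1, which can activate pro-factor D, missed the threshold (r = 0.018, adjusted p = 0.728, within clusters -0.019 and -0.018).

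The receptors of the anaphylatoxins were the most negative. C3ar1 had r = -0.849 (rho = -0.805, adjusted p = 3.49e-129, within clusters -0.646 and -0.841) and C5ar1 had -0.712 (within clusters -0.496 and -0.691). Given both scores these were -0.265 and 0.029. Cfb, the substrate of factor D, had r = -0.494 (within clusters -0.275 and -0.431), at 3.004 to 588.5 CPM (median 153.5). Properdin (Cfp) had -0.224, C5ar2 -0.408 and Cd55 -0.111, with -0.223 and -0.506, -0.284 and -0.420, and -0.305 and -0.179 within the clusters. Given both scores, C3 was at 0.470 and Cfp at 0.418.

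For Rbp4, 2 of 7 partners were positive, 4 negative, and Rarb missed the threshold (r = -0.005, within clusters -0.063 and -0.0099). Slc2a4, the insulin-responsive glucose transporter GLUT4, was the highest at r = 0.492 (rho = 0.439, adjusted p = 3.73e-28, within clusters 0.220 and 0.610), above the r of Rbp4 with 99.4% of all genes. It is itself 1 of the 18 adipocyte markers, and given both scores its r was -0.027. The receptors Stra6 and Stra6l were scarce, with medians of 0.166 and 0.834 CPM, and had -0.136 and -0.324. Within the clusters these were 0.0074 (p = 0.912) and -0.138 for Stra6 and 0.038 (p = 0.574) and -0.434 for Stra6l. Ttr, the plasma partner of Rbp4, had a median of 0.814 CPM and r = 0.137 (p = 0.00293, rho = 0.139, within clusters 0.237 and 0.111).

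For Apln, 2 of 5 partners were positive and 3 negative. Aplnr, the apelin receptor, had a median of 19.7 CPM (range 2.72 to 98.2) and r = 0.497 (rho = 0.487, adjusted p = 1.23e-29), at 0.582 without and 0.340 with Y chromosome counts and at 0.350 given both scores. Hif1a, a hypoxia factor under which Apln is induced, had r = 0.492 (within clusters 0.416 and 0.396). Insr, the insulin receptor, was negative at -0.498 (rho = -0.516, within clusters -0.485 and -0.255), and Vegfa, also a hypoxia target, was negative at -0.285, with -0.340 and -0.058 (p = 0.37) within the clusters. Furin, a proprotein convertase, had -0.227, with -0.114 (p = 0.0859) and -0.119 (p = 0.0657) within the clusters.

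For Nampt, 7 of 12 partners were positive, 2 negative and 3 missed the threshold. The NAD-dependent deacylases Sirt3 and Sirt1 had r = 0.681 (rho = 0.608, adjusted p = 1.09e-63) and 0.604 (rho = 0.592). Nmnat1 and Nmnat3, which make NAD from the product of Nampt, had 0.649 and 0.571, whereas Nmnat2 had -0.095 (adjusted p = 0.0497). Naprt, of the parallel route from nicotinic acid, had 0.537, Insr 0.637 and the NAD consumer Parp1 0.398. Within the clusters without and with Y chromosome counts, these were 0.720 and 0.361 for Sirt3, 0.706 and 0.409 for Nmnat1, 0.677 and 0.481 for Insr, and 0.514 and -0.044 (p = 0.494) for Parp1. They were 0.635 and 0.4496 for Sirt1, 0.681 and 0.233 for Nmnat3, 0.603 and 0.131 (p = 0.0433) for Naprt, and -0.302 and -0.143 (p = 0.0269) for Nmnat2. Nnmt, which methylates and so removes nicotinamide, was negative at -0.339, with -0.409 and -0.069 (p = 0.282) within the clusters. The NAD glycohydrolase Cd38 (r = -0.065), Nmrk1 (0.069) and the clock gene Arntl (0.084, rho = 0.181) were the 3 that missed the threshold.

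**Figure D5:**
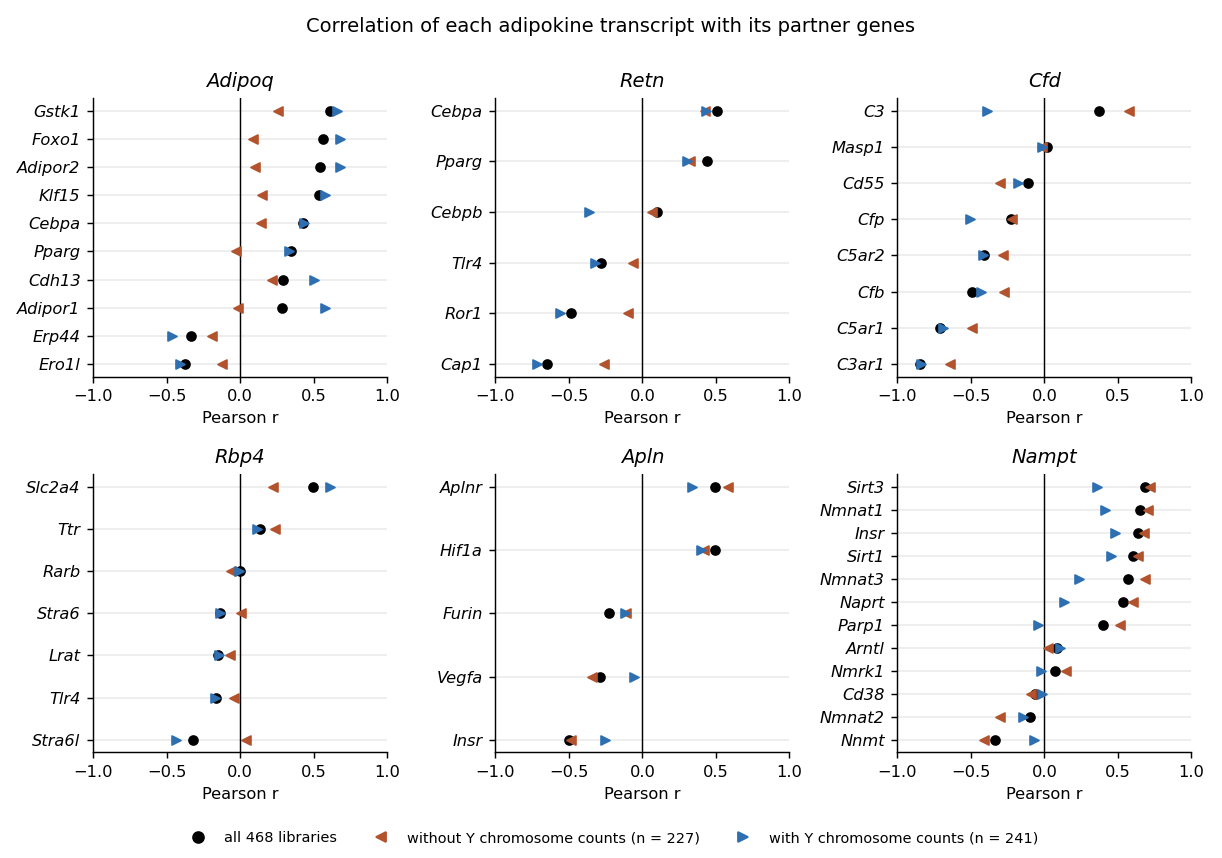
Pearson r of each member with its partner genes over all libraries (circles) and within the libraries without (left triangles) and with Y chromosome counts (right triangles). C3 stands on opposite sides of 0 in the clusters (0.577 and -0.392), C3ar1 is at -0.849 over all, and most Nampt partners lie further to the right without Y chromosome counts.

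The genes closest to each member were those with the highest value of the smaller of both within-cluster r, among 9496 genes whose mean level reached 10 CPM. Here and below, values are r without and with Y chromosome counts. Closest to Adipoq were Sdf4 (0.651 and 0.652), Gsn, also a gene of the progenitor list (0.618 and 0.682), and Cd302 (0.684 and 0.617), and farthest were Chd3 (-0.500 and -0.570) and Gng12 (-0.458 and -0.592). Closest to Retn were Cdo1, a cysteine dioxygenase (0.649 and 0.802), Pcx, pyruvate carboxylase (0.634 and 0.742), and Atp5j (0.607 and 0.642), and farthest were Dock8 (-0.591 and -0.628) and Evl (-0.520 and -0.800). Cfd had the tightest neighbors: Aldh2, mitochondrial aldehyde dehydrogenase (0.825 and 0.866), Sod1, cytosolic superoxide dismutase (0.824 and 0.823), and Slc1a3, a glutamate transporter (0.821 and 0.835), with Kif3b (-0.781 and -0.782) and Jpt2 (-0.779 and -0.783) at the other end.

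Rbp4 had the loosest neighbors: Rida (0.407 and 0.429), the folate enzyme Aldh1l1 (0.405 and 0.490) and Golga7b (0.399 and 0.441), with Sertad2 (-0.366 and -0.464) and Ino80 (-0.354 and -0.489) farthest. Apln was closest to Fscn1, the actin bundler fascin (0.713 and 0.684), Vash1, vasohibin (0.620 and 0.606), and Myadm (0.606 and 0.620), and farthest from Rsrp1 (-0.566 and -0.570) and Eif4b (-0.586 and -0.559). Nampt was closest to Uqcrc2, a subunit of respiratory complex III (0.785 and 0.685), Acacb, an acetyl-CoA carboxylase (0.805 and 0.673), and Acadvl, an enzyme of fatty acid oxidation (0.755 and 0.667), and farthest from the collagen gene Col16a1 (-0.725 and -0.607) and the growth factor Pdgfa (-0.728 and -0.590). These genes were picked for their likeness, so the values are a description and carry no test.

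Mouse number and library number are the only ordering the labels give. Mouse number was associated with 23.7% of genes in edgeR at an adjusted p below 0.05, and with 1 of the 6 members. That member was Nampt, which fell by 0.039 ± 0.014 (SE) on the log2 scale per 100 mouse numbers (adjusted p = 0.0277). The slope was -0.020 with an adjusted p of 0.364 once the model held Xist and the Y genes. Cfd had a slope of -0.084 ± 0.042 (adjusted p = 0.132), Adipoq one of -0.034 ± 0.015 (adjusted p = 0.0688) and Apln one of 0.055 ± 0.025 (adjusted p = 0.0922). Library number was associated with 0.267% of genes, 49 in all, and with 0 members in edgeR. Nampt was the 1 member with an unadjusted p below 0.05 (p = 0.0402), as were 1671 genes, and limma and DESeq2 also called 0 members.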

How the data were processed

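The members, partner lists and marker lists were chosen with earlier results of these data known. The authors aligned both read ends as single ends to a transcriptome of the founder strains with EMASE within GBRS (GRCm38), removed transcripts with too few reads, and deposited expected counts per gene and log2 values from the variance stabilizing transformation of DESeq2, with versions not given in the sources used here. Transformed values ranged from 5.31 to 25.3 and served as an alternative. Expected counts, 66.8% of them whole within 1e-06, were rounded for edgeR. Genes with at least 10 counts in 50% of libraries were kept, and log2 CPM used TMM factors (0.578 to 1.36) and a prior count of 2. Relations were Pearson r and Spearman rho with two-sided permutation tests of 100000 resamples, and partial correlations permuted residuals. Slopes across all genes came from limma 3.58.1 and edgeR 4.0.16 (quasi-likelihood, mouse and library number in 1 model), Benjamini-Hochberg adjusted, threshold 0.05. DESeq2 1.42.0 was an alternative. Scripts were tested on simulated data. Named genes were the members, the partners past the filter (some listed partners are not reported here), and per member the 3 closest and 2 farthest genes whose mean level reached 10 CPM. Libraries named are those with the lowest or highest level of a member. Nothing in the labels names sex or wave, so Xist and the Y chromosome genes, and blocks of mouse and library numbers, stood in for them. No 2 libraries held identical counts (highest r between 2 libraries 0.970). All 23180 gene identifiers were matched to the GRCm38 annotation (GENCODE M21). With 1 library per mouse, p-values cover the spread between mice.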

Additional observations from a re-analysis of the deposited data

Results flagged for a closer look

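The slope of 1 gene on another differed between the libraries without and with Y chromosome counts in 21 of 48 partner relations (interaction in limma, adjusted p below 0.05 over all genes), a test chosen once the data had been seen. Of the 15 member pairs, 5 differed when both genes as predictors had to pass with the same sign, and 11 when 1 had to pass. The background is high, since 41.8% of genes passed with Adipoq as the predictor and 42.3% with Cfd. It was lower with Nampt (30.8%), Retn (26.6%), Rbp4 (25.8%) and Apln (9.66%). Differences are given with minus without Y chromosome counts, in log2 CPM per SD of the predictor.

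Per SD of Adipoq, the slope of Retn differed by 0.43, of Cfd by 0.64, of Rbp4 by 0.24 and of Nampt by 0.21, and per SD of Cfd that of Rbp4 differed by 0.26. All 5 were higher with Y chromosome counts. Cfd with Nampt also passed with both predictors but with opposite signs, -0.21 per SD of Cfd and 0.48 per SD of Nampt. Among Adipoq partners, the differences were 0.20 for Klf15, 0.18 for Foxo1, 0.17 for Adipor2, 0.11 for Pparg, 0.11 for Gstk1, 0.066 for Adipor1 and -0.043 for Erp44. All 7 slopes were thus farther from 0, or crossed it, in the libraries with Y chromosome counts, where Adipoq itself varied more (SD of log2 CPM 0.58 against 0.33). The part of that spread in the differences was not tested.

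Among Retn partners, the differences were -0.24 for Cebpb, -0.14 for Ror1, -0.089 for Cebpa and -0.062 for Cap1. Among Cfd partners they were -0.68 for C3, -0.30 for C3ar1 and 0.12 for Cd55. C3 was the partner with a positive slope in 1 cluster and a negative slope in the other, at an unadjusted permutation p of 1e-05 in both. For Rbp4 the difference was -0.75 for Stra6l, a gene with a median of 0.834 CPM. Among Nampt partners 5 of the 6 slopes were lower with Y chromosome counts, by -0.30 for Sirt3, -0.19 for Naprt, -0.17 for Nmnat3, -0.088 for Parp1 and -0.077 for Nmnat1, and Nnmt differed by 0.15.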

How the results depend on the processing

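The mean of all 6 members moved by less than the SD between mice under every scaling and depth tried. Their SD of log2 CPM moved by less than its own size, also on the transformed scale. Both limits are wide, so passing them does not show that the levels are stable. Of the 15 pairs, 14 passed over all libraries, or 15 without the 2 farthest libraries. Given both scores, 9 pairs passed without and 7 with Y chromosome counts, a setting added after the data were seen. Of 66 score relations 53 passed over all libraries, but 32, 30 and 35 in mouse number blocks 2, 3 and 4 and 33, 26 and 35 in library number blocks 1, 3 and 5, which hold fewer libraries. The number of members associated with mouse number, 1, became 0 when the model held Xist and the Y genes, 2 when the shallowest libraries were left out and 3 with limma.

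Several relations changed sign, and the cause was not tested. Of 48 partner relations, r changed sign in 5 without and 5 with Y chromosome counts, in 17 given both scores and in 2 given Xist and the Y genes. Of the 15 member pairs, those that changed sign hold Apln or Nampt. Adipoq with Apln (-0.112) became 0.139 without and 0.035 with Y chromosome counts, 0.077 given Xist and the Y genes, 0.192 given the macrophage score, 0.020 given both scores and 0.063 with Y chromosome counts given both. Rbp4 with Apln (-0.084) became 0.0099, 0.080, 0.047, 0.202, 0.062 and 0.125 in the same settings and 0.127 in the highest mouse block. Adipoq with Nampt (0.187) became -0.167 without Y chromosome counts, -0.085 given the adipocyte score, -0.146 given the macrophage score, -0.255 given both, and -0.235 without and -0.082 with Y chromosome counts given both. Given the macrophage score, both scores, and both scores without Y chromosome counts, Retn with Apln became 0.187, 0.049 and 0.017, Retn with Nampt -0.049, -0.114 and -0.033, and Rbp4 with Nampt -0.025, -0.089 and -0.028. With Y chromosome counts given both, Retn with Apln was 0.013 and Rbp4 with Nampt -0.013.

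Without Y chromosome counts, the sign changed for Adipoq with macrophages (0.127), progenitors (0.218) and thermogenic genes (-0.214), Retn, Cfd and Rbp4 with endothelial genes (-0.140, -0.268 and -0.087), Rbp4 with progenitors (0.0030) and Apln with adipocytes (0.103). With Y chromosome counts it changed for thermogenic genes with Adipoq (-0.169), Retn (-0.113), Cfd (-0.111) and Rbp4 (-0.056), Apln with adipocytes (0.0996) and Nampt with endothelial genes (0.204). Given Xist and the Y genes, Adipoq with thermogenic genes was -0.144 and Apln with adipocytes 0.095. Over blocks, Cfd with endothelial genes reached -0.109 and -0.073, Apln with adipocytes 0.119 and 0.080 (mouse and library blocks), Apln with progenitors -0.026 and Nampt with endothelial genes 0.045. With Xist and the Y genes in the model, the slope of Cebpb on Retn was -0.11, that of Masp1 on Cfd -0.026, and those on mouse number 0.0055 for Cfd, 0.0033 for Rbp4 and 0.0032 for Retn.

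No paired analysis was possible because the labels give 1 group of mice. Depth was no limit for the members, with at least 100 counts in each library. Cell shares, generation, weight and protein levels were not measured in the files used here, and the labels name no sex. A relation between transcripts therefore cannot be told apart from a relation between cell shares.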

Other observations

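Relatives of adiponectin correlated with it in both directions. Of 13 genes of the C1q/TNF family past the filter, 3 correlated positively and 8 negatively with Adipoq in limma at an adjusted p below 0.05, where the shares over all 18379 genes were 34% and 36.4%. The list includes the complement subunits C1qa, C1qb and C1qc, with r = -0.441, -0.484 and -0.430 with Adipoq, and C1qa is also a gene of the macrophage list. The median r of the 13 genes was -0.11, beside -0.01 over all genes, and it was 0.086 without and -0.13 with Y chromosome counts. With Apln 9 were positive and 2 negative (median r 0.35), and with Nampt 1 was positive and 11 negative (median r -0.46). The shares over all genes were 37.4% positive and 37.4% negative on Apln, and 36.2% and 42.4% on Nampt. C1qtnf12, chosen after its values were seen, was the relative closest to Cfd, with r = 0.753 (0.657 without and 0.754 with Y chromosome counts), and it had r = 0.683 with Retn. With Adipoq it had r = 0.494, at -0.0067 without and 0.665 with Y chromosome counts. The resistin relatives Retnla (9.07 to 664.9 CPM, median 99.5) and Retnlg had r = 0.092 and 0.045 with Retn, and neither passed the threshold.

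Other secreted adipose factors, 20 genes including leptin, were mostly opposite to Cfd and alike to Apln. With Cfd 2 were positive and 16 negative (median r -0.54), and with Apln 17 were positive and 3 negative (median r 0.42). The shares over all genes were 40.1% positive and 40.1% negative on Cfd, and 37.4% and 37.4% on Apln. The genes named here were chosen after their values were seen. Leptin (Lep) had r = -0.769 with Cfd, at -0.749 without and -0.705 with Y chromosome counts, and r = 0.663 with Apln, at 0.624 and 0.501. The monocyte chemokine Ccl2 had -0.845 with Cfd (-0.741 and -0.782) and 0.640 with Apln (0.584 and 0.451). On the other side, Nrg4, a fat cell growth factor, had 0.664 with Cfd (0.590 and 0.687), and angiotensinogen (Agt) had 0.430, below its value within either cluster (0.550 and 0.720).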
